A study of Rattus norvegicus with 15 samples.

Results

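The natriuretic peptide system of the rat subfornical organ was examined through the genes of its 3 peptides, Nppa, Nppb and Nppc, and its 3 receptors, Npr1, Npr2 and Npr3. All probe sets that the array annotation assigns to these symbols were taken, which gave 6 probe sets, 1 per gene, of 31099 in the deposited table. The measurements come from 15 Affymetrix rat expression arrays, 5 each for water deprivation, food deprivation and control. All animals were male Sprague Dawley rats of 10 to 12 weeks, and RNA from 5 animals was combined for each array, so an array stands for a pool and not an animal. The water-deprived group is described as deprived of water with no length of deprivation and no treatment protocol in the sources used here, the food-deprived group had no food for 48 h, and the controls have no stated treatment. The wording of the study's design text puts 48 h without food beside all 3 conditions, so the feeding state of the other groups was not settled here. Nothing in the labels says that the pools of a group were prepared on separate days, so p-values measure the spread between these pools.

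Natriuretic peptides are hormones that promote salt and water loss and lower blood pressure. Npr1, also called guanylyl cyclase A, is the receptor of atrial (Nppa) and brain (Nppb) natriuretic peptide, and Npr2, guanylyl cyclase B, is that of C-type natriuretic peptide (Nppc). Both make cyclic GMP (cGMP) when a peptide binds, while Npr3 has no cyclase domain, clears the peptides from the extracellular space and couples to inhibitory G proteins. The subfornical organ lies outside the blood-brain barrier, where circulating peptides can reach it, and atrial natriuretic peptide given to rats opposes the drinking that angiotensin II evokes there.

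Nppb and Nppa lie next to each other on rat chromosome 5, with 0 annotated genes between them. Npr2 is also on chromosome 5, Npr1 and Npr3 are on chromosome 2, and Nppc is on chromosome 9. The sequences upstream of Nppa and Nppb are shown because these peptide genes are neighbours on the chromosome, and that of Npr1 because it had the lowest unadjusted p of the 6 genes in the comparison of water deprivation with control. Each is the 250 bases before the annotated start site in RefSeq's GRCr8 build, read 5′ to 3′ on the gene's strand. Npr1 is at chr2:178247089-178247338 on the minus strand, Nppa at chr5:163711934-163712183 and Nppb at chr5:163699758-163700007, both on the plus strand. Capitals mark the letters of the TATA box (TATAAA), the GATA motif (GATAA), the GC box (GGGCGG) and the CCAAT box, searched on both strands, so that their reverse complements are capitalised too. No match overlaps that of another motif.
Npr1: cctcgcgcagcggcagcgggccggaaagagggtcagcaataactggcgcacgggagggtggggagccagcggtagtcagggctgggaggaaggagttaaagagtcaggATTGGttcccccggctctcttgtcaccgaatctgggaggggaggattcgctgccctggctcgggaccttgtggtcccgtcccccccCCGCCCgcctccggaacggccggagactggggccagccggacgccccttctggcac
Nppa: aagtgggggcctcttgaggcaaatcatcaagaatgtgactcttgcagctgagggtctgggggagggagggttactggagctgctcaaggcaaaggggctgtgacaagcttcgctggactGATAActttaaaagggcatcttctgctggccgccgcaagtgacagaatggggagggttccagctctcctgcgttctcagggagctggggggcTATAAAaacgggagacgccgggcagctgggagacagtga
Nppb: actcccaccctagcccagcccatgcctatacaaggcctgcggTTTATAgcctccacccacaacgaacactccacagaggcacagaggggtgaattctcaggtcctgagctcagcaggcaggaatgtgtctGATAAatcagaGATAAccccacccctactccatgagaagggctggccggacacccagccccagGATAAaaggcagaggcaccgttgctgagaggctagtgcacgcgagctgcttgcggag
The Nppa sequence held 1 TATA box match and 1 GATA motif match. The Nppb sequence held 3 GATA motif matches, and 1 TATA box match on the other strand. The Npr1 sequence, with a GC content of 68.8% against 57.2% for Nppa and 58% for Nppb, held 1 GC box match and 1 CCAAT box match, both on the other strand, and no letters of the TATA box or GATA motif. Over 33469 upstream sequences of the same length, 12.9% held the TATA box letters, 23.5% those of the GATA motif, 30.5% those of the GC box and 34% those of the CCAAT box. A sequence was found for 5 of the 6 genes.

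Signal is the deposited intensity of a probe set in linear units, and every array of the deposited table has a trimmed mean of 100. Levels of different genes are not compared, since probe sets differ in how strongly they bind. Differences are on the log2(signal + 16) scale, which understates the change of dim probe sets. They come from a limma fit of the 3 groups, and adjusted p-values (Benjamini-Hochberg) cover all 21729 probe sets whose mean log2 value exceeded 5.11. Npr1, Npr2, Nppa and Nppc passed this filter, and Npr3 and Nppb did not.

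None of the 4 filtered-in genes passed an adjusted p of 0.05 in any of the 3 comparisons of this fit. Npr1 averaged 127 ± 51.1 in water-deprived, 88.2 ± 13.0 in food-deprived and 79.5 ± 26.4 in control arrays (SD, n = 5 each), and its signal was highest on 3 of the 5 water-deprived arrays. Nppa was lower on all 5 water-deprived arrays than on any food-deprived array, as were 445 probe sets (2.05%). Npr2 was lower on 4 of 5 food-deprived arrays than on any control array. The share of probe sets with this Npr2 pattern was not counted, so it is not read as a trait of the gene. Over all probe sets tested, limma called 1 (0.0046%) for water deprivation against control, 1854 (8.53%) for food deprivation against control and 33 (0.152%) for water deprivation against food deprivation.

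The arrays fell into separate sets by a measure of RNA quality. Both Actb and Gapdh have control probe sets at their 5′ and 3′ ends, and the ratio of these falls when RNA is degraded or amplified products are short. This ratio had mean log2 values of -0.86 to -0.71 on 7 arrays, which were water-deprived arrays 1 and 2 and the 5 of the food-deprived group. The other 8 arrays, the 5 controls and water-deprived arrays 3 to 5, were at -2.81 to -1.24. These are called the high and the low array set, a division made after seeing the data. Water-deprived array 3 stood apart within the low set, at -2.81, while the other low arrays were at -1.675 to -1.245. It also had the highest summed signal of hippocampal and septal markers (Prox1, Neurod6 and Zic1), 556 against 97.8 to 180 on all other arrays. That sum rested on Prox1, which reached 520 among low-set water-deprived arrays, against at most 133 on controls. Neurod6, below the filter, and Zic1 reached at most 15.2 and 42 on low-set water-deprived arrays, under the highest controls (20 and 45.8). All 6 listed neuron markers of the subfornical organ had a probe set, and Nos1 alone was below the filter. Each group's level of a gene depends on both the number of cells that express it and the RNA per cell, which cannot be told apart in pooled tissue.

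**Figure D1:**
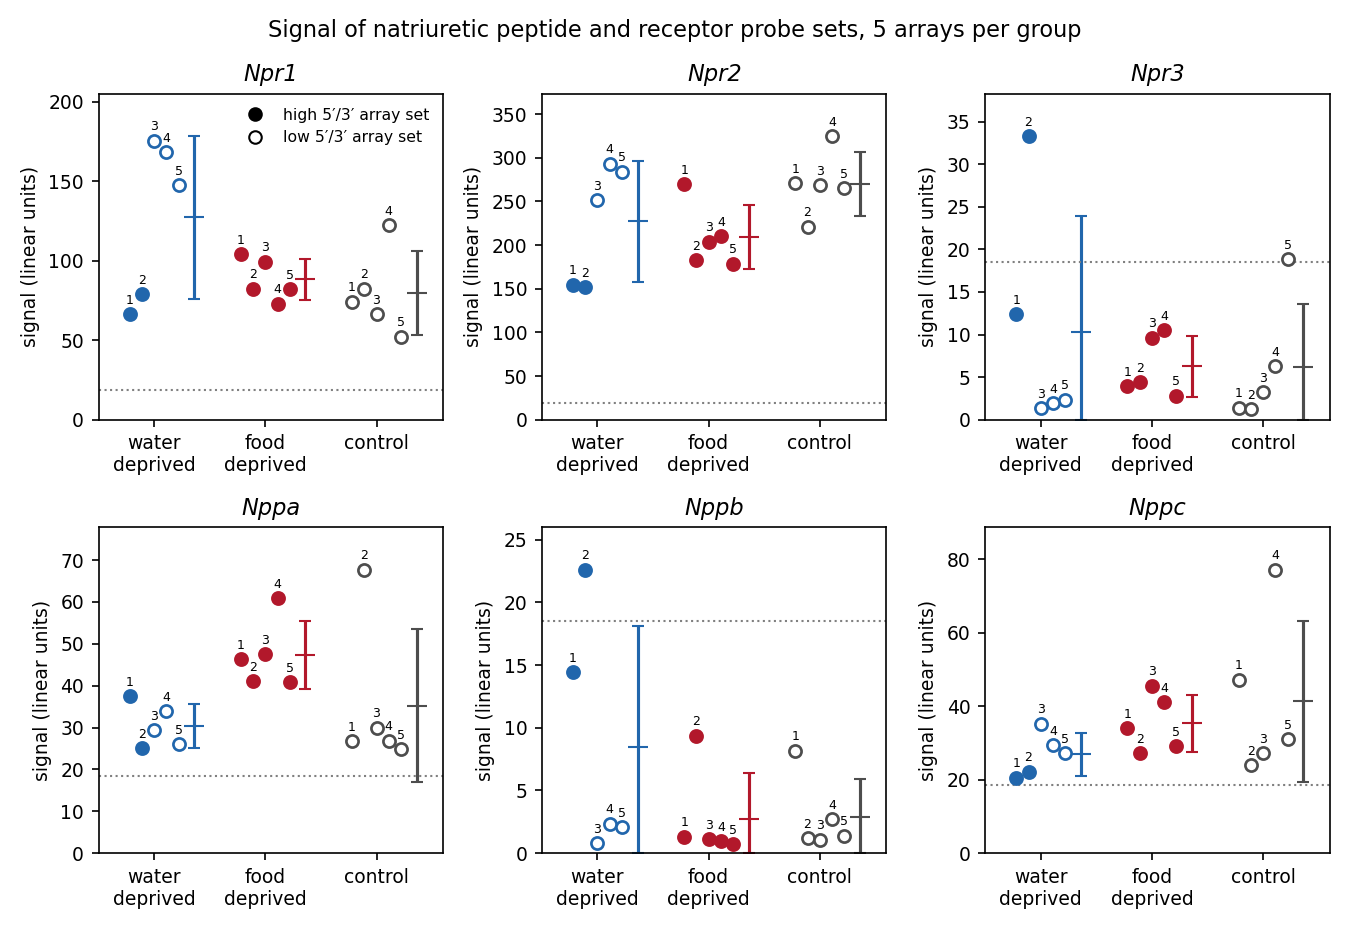
Signal (linear units) of the 6 probe sets on each array, with water-deprived, food-deprived and control arrays from left to right. Numbers are array numbers, filled points the high and open points the low 5′/3′ array set, bars the mean ± SD of 5 arrays, and the dotted line the filter (log2 5.11). Npr1 was at 148 to 175 on water-deprived arrays 3 to 5 and at or below 122 on the other 12 arrays.

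Npr1 signal was 66.3, 79.1, 175, 168 and 148 on water-deprived arrays 1 to 5. It was 104, 82.3, 99.3, 73.1 and 82.2 on the food-deprived arrays, and 74.2, 82.5, 66.3, 122 and 52.1 on the controls. The 3 low-set water-deprived arrays lay above all others, control 4 was the highest of the rest, and water-deprived arrays 1 and 2 lay within the range of the controls, so the groups overlapped. The log2 difference of water deprivation minus control was 0.54 (SE 0.235, 95% interval 0.0441 to 1.04, limma adjusted p = 0.752, 3 of 5 water-deprived arrays above every control). Without water-deprived array 3, which had the highest Npr1 signal and the lowest 5′/3′ ratio, this difference was 0.42. For water deprivation minus food deprivation it was 0.38 (SE 0.235, limma adjusted p = 0.44), and for food deprivation minus control 0.16 (SE 0.235, adjusted p = 0.719).

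With the array set as a term in the limma fit, water deprivation minus control rests on 3 water-deprived arrays and 5 controls, all of the low set. Npr1 was then at 0.95 (SE 0.18, 1.93-fold, 95% interval 0.567 to 1.33), with a limma adjusted p of 0.149. By unadjusted p it stood among the first 13 of 21729 probe sets, of which 6 (0.0276%) passed. Every low-set water-deprived array exceeded every control for Npr1, which held for 244 probe sets (1.12%). The result depended on control 4: without it the difference was 1.09 and the limma adjusted p 0.00778, where 12 probe sets (0.0552%) passed. Leaving out other arrays 1 at a time gave no adjusted p below 0.05 for Npr1 and values from 0.84 upward, and a fit of the 8 low arrays alone gave the same difference with an SE of 0.209 and an adjusted p of 0.999.

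**Figure D2:**
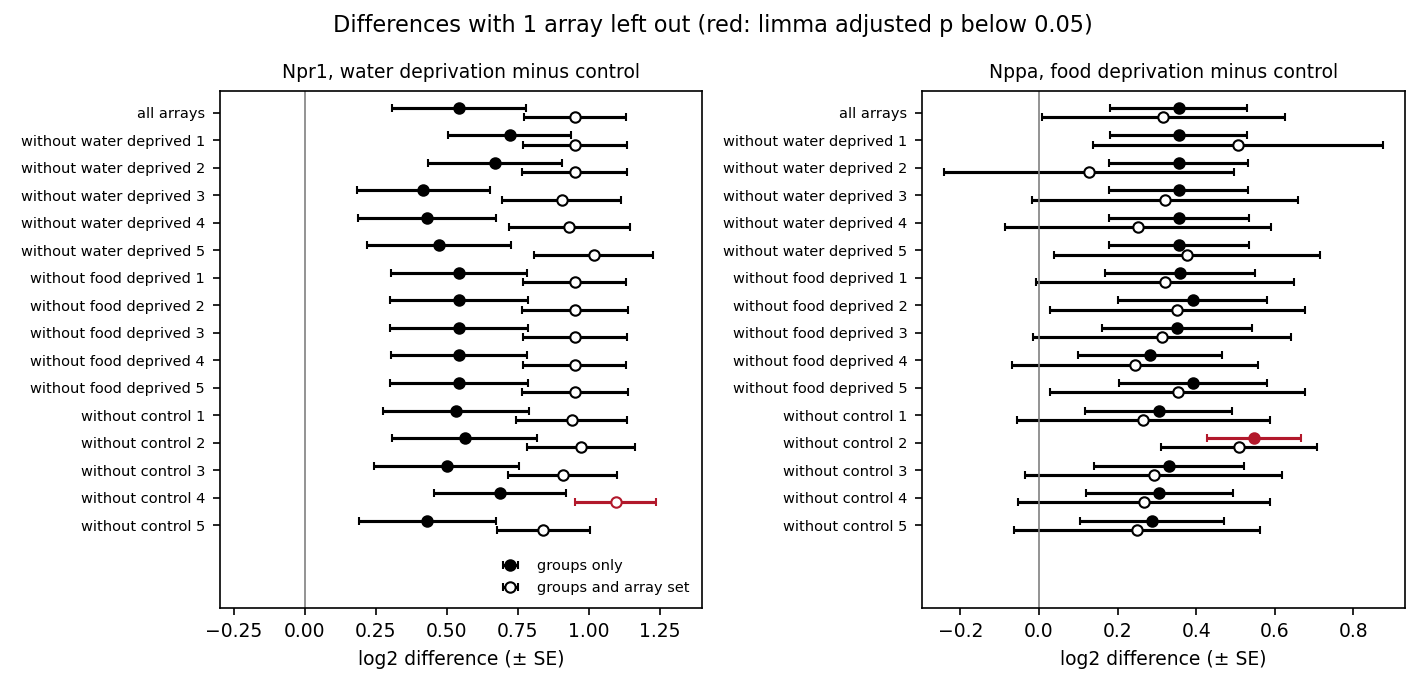
Log2 differences (± SE) of Npr1 for water deprivation minus control and of Nppa for food deprivation minus control, with all arrays and with each array left out, in the fit of groups only (filled) and of groups and array set (open). Red marks a limma adjusted p below 0.05, reached for Npr1 without control 4 (1.09, with the array set) and for Nppa without control 2 (0.55, groups only).

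The other comparisons of Npr1 moved with the same term. Water deprivation minus food deprivation, which then rests on water-deprived arrays 1 and 2 against the 5 food-deprived arrays, was -0.23 (SE 0.206, limma adjusted p = 0.726), against 0.38 without the term. Food deprivation minus control became 1.18 (SE 0.274, adjusted p = 0.471), but no array set holds both of these groups, so this value is reached only through the water-deprived arrays. In this fit 0% of probe sets passed for either of these comparisons, where 1879 for food deprivation minus control and 2174 for water deprivation minus food deprivation had an unadjusted p under 0.05. The set term itself was large for Npr1, at -1.02 for high minus low (SE 0.225, 0.493-fold, limma adjusted p = 0.00872). Its estimate rests on the water-deprived group alone (arrays 1 and 2 against 3 to 5), since every other group lies within 1 set, and 3461 probe sets (15.9%) passed it.

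Of 6 listed neuron markers of the subfornical organ, 5 were tested, and 3 of them, Casr, Calcr and Agtr1a, were high on the same water-deprived arrays as Npr1. Casr, the calcium-sensing receptor gene, was at 127 to 176 on water-deprived arrays 3 to 5 and 63.1 to 65.8 on arrays 1 and 2, against 25.7 to 51.3 on food-deprived arrays and 32.6 to 77.0 on controls. Its water deprivation minus control difference was 0.94 (SE 0.248, limma adjusted p = 0.585), and 1.35 with the array set (SE 0.199, adjusted p = 0.0227), where 0.0276% of probe sets passed. Calcr, the calcitonin receptor gene, was at 240, 179, 487, 399 and 355 on water-deprived arrays 1 to 5, against 171 to 243 on food-deprived arrays and 166 to 306 on controls. Agtr1a, a receptor of angiotensin II, was at 347 to 416 on water-deprived arrays 3 to 5, 147 and 169 on arrays 1 and 2, 143 to 186 on food-deprived arrays and 54.4 to 279 on controls. The other 2 were also higher on water-deprived arrays 3 to 5 than on arrays 1 and 2, but lay within the control range on arrays 3 to 5. Etv1, a transcription factor gene, was at 660 to 908 on water-deprived arrays 3 to 5 and 437 to 479 on arrays 1 and 2, against 591 to 1245 on controls (water deprivation minus control -0.37, limma adjusted p = 0.752). Scn7a, a sodium channel gene, was listed as a marker of glia as well as neurons. Its signal was 38.9 to 58.5 on water-deprived arrays 3 to 5 and 20.8 to 22.8 on arrays 1 and 2. On controls it was at 18.4 to 90.6 (water deprivation minus control -0.21, limma adjusted p = 0.889). The summed signal of the 6 markers (Agtr1a, Calcr, Etv1, Nos1, Scn7a and Casr) was 1581 to 1994 on low-set and 886 to 967 on high-set water-deprived arrays, 1027 to 1238 on food-deprived arrays and 872 to 2012 on controls. Control 4 had the highest sum of all 15 arrays and the highest control signal of Npr1. Markers of the neighbouring hypothalamus (Avp, Oxt, Pmch and Hcrt, all above the filter) summed to 1005 to 3602 on low-set and 310 to 371 on high-set water-deprived arrays, 238 to 265 on food-deprived arrays and 981 to 3663 on controls. Hcrt alone did not follow the array sets. It was at 88.8 to 117 on low-set and 83.2 to 105 on high-set water-deprived arrays, 88.8 to 132 on food-deprived arrays and 64.9 to 234 on controls. The part of the sampled tissue in the Npr1 values was not tested.

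**Figure D3:**
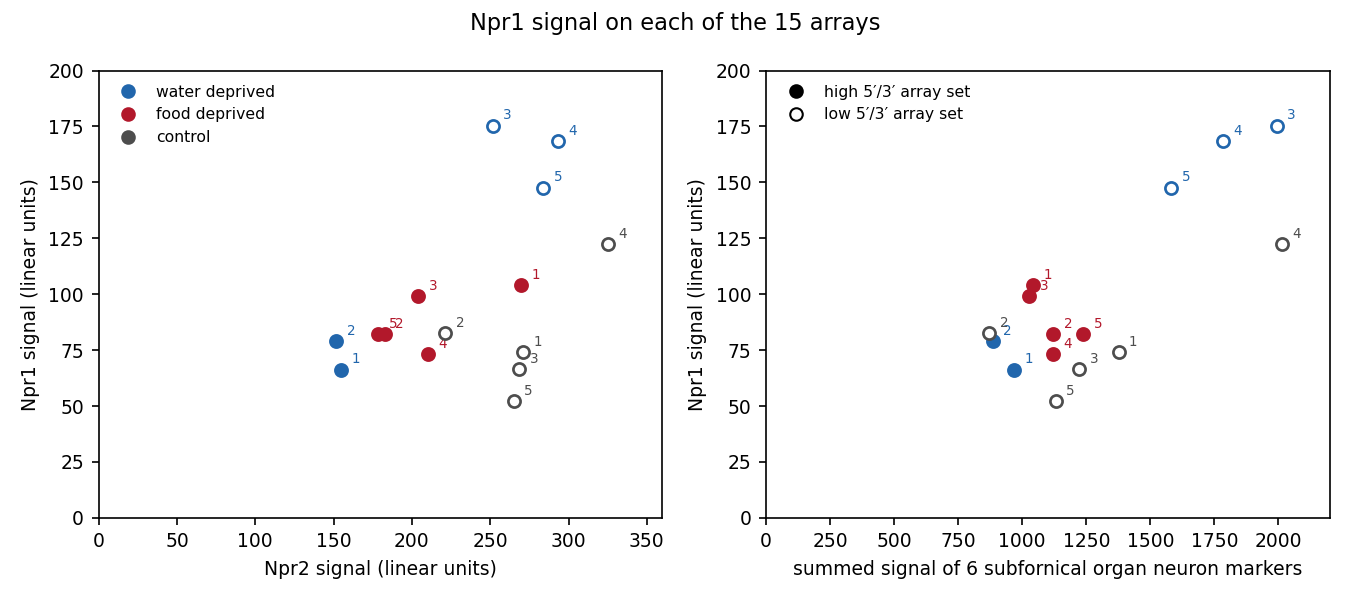
Npr1 signal on each of the 15 arrays against Npr2 signal (left) and against the summed signal of 6 subfornical organ neuron markers (right), all in linear units. Blue, red and grey mark water-deprived, food-deprived and control arrays, filled points the high and open points the low array set, and numbers the array. Water-deprived arrays 3 to 5 and control 4 have the 4 highest Npr1 signals and the 4 highest marker sums.

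Among all genes above the filter, 11509 were ranked by Pearson correlation with Npr1 over the 15 arrays. The most alike were Grb10, an adaptor of growth factor receptors (r = 0.887), Spred3 (0.872), Ptprn, a membrane protein of secretory granules (0.862), Ap2a2, a subunit of the clathrin adaptor (0.861), and Calcr (0.849). Grb10 was at 432 to 464 on water-deprived arrays 3 to 5, 277 and 305 on arrays 1 and 2, 252 to 327 on food-deprived arrays and 180 to 379 on controls. These correlations share arrays, groups and array sets. After group and array set were removed, the 5 most alike genes were others, led by Rpp38 (0.922), and Calcr was not among them.

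Npr2, the receptor of C-type natriuretic peptide, was at 155, 152, 252, 294 and 284 on water-deprived arrays 1 to 5. On food-deprived arrays it was at 270, 183, 204, 210 and 179, and on controls at 271, 221, 269, 325 and 265. Water-deprived arrays 1 and 2 were the lowest of all 15, and food-deprived array 1 alone of its group reached the control range. The share of probe sets with either pattern was not counted. Food deprivation minus control was -0.35 (SE 0.179, limma adjusted p = 0.226) and water deprivation minus control -0.28 (SE 0.179, adjusted p = 0.779). Water deprivation minus food deprivation was 0.07 (SE 0.179, adjusted p = 0.878).

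The sign of each Npr2 difference turned when the array set entered the fit. Food deprivation minus control was then 0.44 (SE 0.201, limma adjusted p = 0.575), water deprivation minus control 0.04 (SE 0.132, adjusted p = 0.987) and water deprivation minus food deprivation -0.40 (SE 0.152, adjusted p = 0.422). The set term was -0.79 for high minus low (SE 0.166, 0.579-fold, adjusted p = 0.00688). Within the low set, water-deprived arrays 3 to 5 (252 to 294) lay inside the control range of 221 to 325. Both high-set water-deprived arrays lay below every food-deprived array, as they did for Nppa and Nppc, a pattern found in 2474 probe sets (11.4%). With quality weights for arrays the food deprivation minus control value was -0.39 (limma adjusted p = 0.0372), but 5840 probe sets (26.9%) passed there.

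Genes most alike to Npr2 over the 15 arrays reached higher correlations than those of the other 3 genes ranked. They were Cep250, a centrosome linker protein (r = 0.955), Tmem106c (0.947), the transcriptional corepressors Trim28 (0.945) and Ctbp1 (0.945), and Zfp275 (0.944). Cep250 was lowest on water-deprived arrays 1 and 2, at 68.3 and 70.6, against 92.8 to 105 on arrays 3 to 5, 73.4 to 109 on food-deprived arrays and 86.3 to 127 on controls. It remained the most alike after group and array set were removed (0.943).

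**Figure D4:**
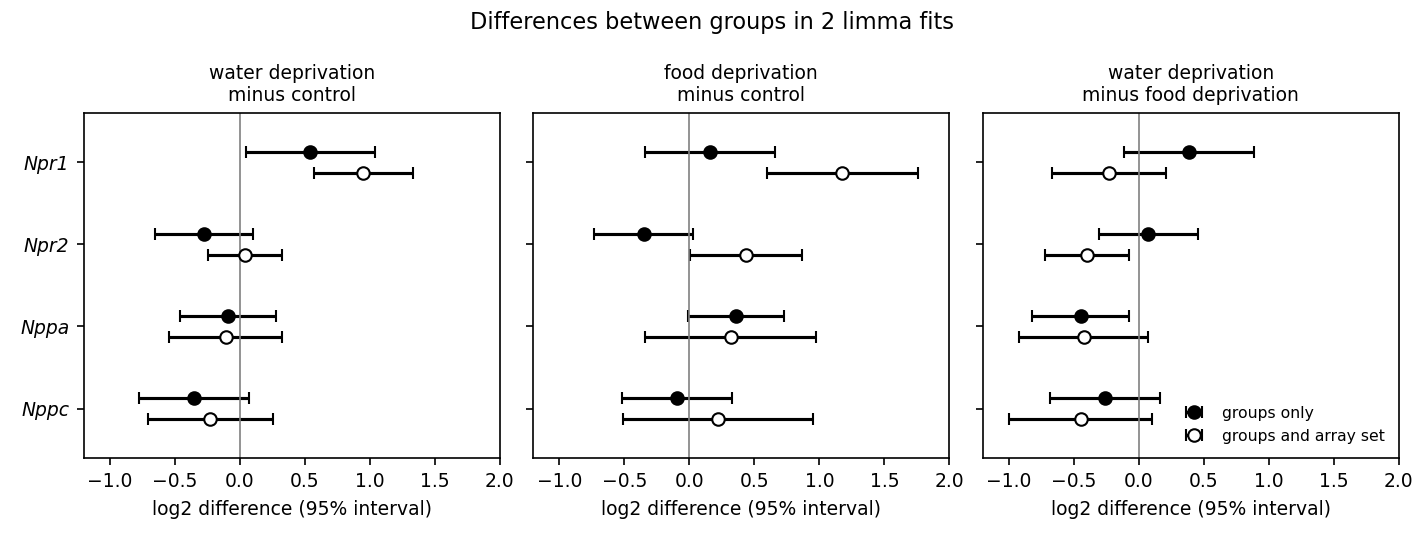
Log2 differences with 95% intervals for the 4 tested genes in 3 comparisons, from the limma fit of groups only (filled) and of groups and array set (open). For Npr1, water deprivation minus control was 0.54 and 0.95 in these fits, and the Npr2 differences changed sign between them.

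Npr3, the clearance receptor, was dim. Its signal was 12.4, 33.3, 1.32, 1.91 and 2.35 on water-deprived arrays 1 to 5, 3.95, 4.41, 9.62, 10.5 and 2.80 on food-deprived arrays, and 1.42, 1.21, 3.23, 6.28 and 18.9 on controls. Only water-deprived array 2 and control 5 exceeded the filter value on their own, and the groups overlapped. In a limma fit of all 31042 probe sets without the filter its adjusted p-values were 0.922 for water deprivation minus control, 0.946 for food deprivation minus control and 0.869 for water deprivation minus food deprivation. In that fit 3 (0.00966%), 2027 (6.53%) and 22 (0.0709%) probe sets passed in these comparisons. The differences were 0.17, 0.04 and 0.12 in the same order. With the array set in the unfiltered fit they were -0.26 (limma adjusted p = 0.956), -1.02 (0.548) and 0.76 (0.415), so the first pair changed sign. There 7 (0.0226%), 2 (0.00644%) and 4 (0.0129%) probe sets passed.

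Nppa, which encodes atrial natriuretic peptide, was at 37.4, 25.1, 29.4, 33.9 and 26.0 on water-deprived arrays 1 to 5. It was at 46.3, 41.0, 47.5, 60.9 and 40.9 on food-deprived arrays, and at 26.7, 67.8, 29.99, 26.8 and 24.8 on controls. All water-deprived arrays were below all food-deprived arrays, a pattern seen in 445 probe sets (2.05%), and 4 of 5 controls lay at water-deprived levels while control 2 was the highest array of all.

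Water deprivation minus food deprivation was -0.45 for Nppa (SE 0.174, 0.733-fold, limma adjusted p = 0.226), and its value within the high set, through the set term, was -0.42 (SE 0.234, adjusted p = 0.559). Food deprivation minus control was 0.36 (SE 0.174, adjusted p = 0.208), and water deprivation minus control -0.09 (SE 0.174, adjusted p = 0.923). Control 2 decided the second of these: without it food deprivation minus control was 0.55 (SE 0.119, limma adjusted p = 0.018), where 1521 probe sets (7%) passed. With the array set in the fit this comparison was at 0.32 (SE 0.31, limma adjusted p = 0.77), and at 0.51 without control 2, and its lowest adjusted p with any 1 array left out was 0.431. Weighting arrays by quality gave 0.46 for food deprivation minus control (adjusted p = 0.0145) and -0.49 for water deprivation minus food deprivation (adjusted p = 0.0349), in a fit where 26.9% and 12.6% of probe sets passed. The array sets themselves did not move Nppa beyond its error, at 0.04 for high minus low (SE 0.255, adjusted p = 0.931).

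Control 2 stood apart in its tissue markers too. It had the highest summed neuron markers of any array, 9265, the highest control sums of astrocyte (14190) and oligodendrocyte (12280) markers, and the lowest sum of subfornical organ markers, 872. Genes most alike to Nppa over the 15 arrays shared its high value. They were Epb41l2, a membrane skeleton protein (r = 0.924), Gatm, an enzyme of creatine synthesis (0.919), Mthfd1l (0.904), Timp4, a metalloproteinase inhibitor (0.901), and Stxbp5 (0.893). Gatm was at 789 on control 2 and 187 to 332 on the other controls, against 226 to 407 on water-deprived and 346 to 525 on food-deprived arrays. The part of this marker difference in the Nppa values was not tested.

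Heart muscle is the main textbook source of Nppa, so heart muscle genes were listed too. Of 5 listed genes 4 had a probe set, and Myh6 and Myh7 passed the filter while Tnnt2 and Myl7 did not. Their summed signal was 43.2 to 58.1 on water-deprived, 58.9 to 80.9 on food-deprived and 30.6 to 59.0 on control arrays. The sum was thus higher on food-deprived arrays than on water-deprived arrays, as Nppa was, but by a narrow margin. Taken alone, each of the 4 genes overlapped between these groups. Myh6 was at 13.3 to 27.8 on food-deprived, 13.6 to 21.1 on low-set and 24.3 to 26.3 on high-set water-deprived arrays. Myh7 was at 18.2 to 29.4, 15.5 to 28.7 and 4.64 to 5.54 in the same order. Control 2, the array with the most Nppa, had the lowest heart sum. These sums rest on 4 dim probe sets, none above 32.4 on any array. Whether other tissue contributed was not tested.

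Nppb, which encodes brain natriuretic peptide, was at 14.4, 22.6, 0.816, 2.36 and 2.06 on water-deprived arrays 1 to 5. It was at 1.33, 9.35, 1.13, 0.937 and 0.729 on food-deprived arrays and at 8.16, 1.18, 1.09, 2.69 and 1.39 on controls. Water-deprived arrays 1 and 2, of the high set, were the highest of all 15, and the other 3 water-deprived arrays lay within the food-deprived range of 0.729 to 9.35. Without the filter, limma gave adjusted p-values of 0.817 for water deprivation minus control, 0.965 for food deprivation minus control and 0.493 for water deprivation minus food deprivation, with differences of 0.30, -0.02 and 0.32. With the array set in the unfiltered fit these were -0.08 (limma adjusted p = 0.99), -0.97 (0.477) and 0.89 (0.192), so the sign of water deprivation minus control changed. Npr3 was likewise higher on these arrays than on any food-deprived array. Both probe sets are below the filter, and the share of all probe sets with this pattern was not counted, so it is not read as a trait of these genes.

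Nppc, which encodes C-type natriuretic peptide, was at 20.5, 22.2, 35.3, 29.3 and 27.2 on water-deprived arrays 1 to 5. It was at 34.1, 27.3, 45.5, 41.0 and 29.2 on food-deprived arrays and at 47.2, 24.0, 27.1, 77.2 and 31.0 on controls. The groups overlapped, with control 4 above all other arrays and water-deprived arrays 1 and 2 below them. The limma difference was -0.35 for water deprivation minus control (SE 0.199, adjusted p = 0.756), -0.09 for food deprivation minus control (SE 0.199, adjusted p = 0.808) and -0.26 for water deprivation minus food deprivation (SE 0.199, adjusted p = 0.553). The set term put them at -0.23 (limma adjusted p = 0.942), 0.22 (0.865) and -0.45 (0.577). Without control 4 the first of them was -0.16 and without control 2 it was -0.465, in the fit of groups only.

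The genes most alike to Nppc over the 15 arrays were Gdpd2 (r = 0.886), Vps35l (0.856), Cpxm1 (0.852), Gchfr, a regulator of tetrahydrobiopterin synthesis (0.851), and Fam136a (0.836). Cpxm1, a member of the carboxypeptidase family, was the most alike after group and array set were removed (0.973). Cpxm1 was at 158 on control 4 and 40.5 on control 2, as Nppc was highest and lowest among controls there. Npr2, the receptor of this peptide, was also highest on control 4 and lowest on control 2 among the controls. This order was not particular to the pair. The summed subfornical organ markers had it too (2012 on control 4 and 872 on control 2), as had Cep250 (127 and 86.3) and Trim28 (535 and 429). Gatm, in contrast, was highest on control 2 (789).

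Correlations between the genes differed between the array sets. Npr2 and Nppc, a receptor and its peptide, had 0.55 over the 15 arrays, 0.71 over the 7 high arrays and 0.66 over the 8 low arrays. Npr1 had -0.14 with its ligand Nppa (0.18 high, -0.06 low) and -0.28 with Nppb (-0.50 high, -0.16 low). Npr1 and Npr2 had 0.44 (0.725 high, 0.31 low), and the neighbouring genes Nppa and Nppb -0.31 (-0.84 high, -0.27 low). Nppb was below the filter. Among the high arrays it was at 14.4 and 22.6 on water-deprived arrays 1 and 2 and at 0.729 to 9.35 on the food-deprived arrays, which limits its correlations. Npr2 with Nppa was at -0.30 over all arrays, with opposite signs in the sets (0.685 high, -0.691 low). Other pairs changed sign too, such as Nppa with Nppc (0.79 high, -0.42 low) and Npr2 with Nppb (-0.76 high, 0.26 low). Water-deprived arrays 1 and 2 lay below every food-deprived array for Npr2, Nppa and Nppc, as in 11.4% of probe sets. This limits the high-set correlations of these genes as well. All these correlations are descriptions over arrays that share groups and array sets.

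Compared over all 3 groups together by limma's F test, the adjusted p-values were 0.313 for Npr1, 0.406 for Npr2, 0.229 for Nppa and 0.477 for Nppc, and 773 probe sets (3.56%) passed. None of the 4 genes passed.

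The wider pathway was followed through 6 lists of 67 genes, of which 59 had a probe set and 34 passed the filter. For water deprivation minus control, 0 of 34 passed by limma in either direction and 2 had an unadjusted p under 0.05, as had 1412 (6.5%) of all probe sets tested. The 3 with the smallest p were Pcsk2, a prohormone convertase (0.47, SE 0.189, adjusted p = 0.72), Gnai2, an inhibitory G protein subunit (-0.79, adjusted p = 0.752), and Pde10a, a phosphodiesterase that degrades cyclic nucleotides (0.39, adjusted p = 0.76). The median difference was 0.0224 over the 34 and 0.00232 over all probe sets tested, and with the array set 0 passed.

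For food deprivation minus control 2 of 34 passed by limma, 1 in each direction, beside 8.53% of all probe sets tested. Cpe, a carboxypeptidase that trims peptide hormones, rose 1.38-fold (0.47, SE 0.131, adjusted p = 0.0402), with 3821 to 5643 on food-deprived arrays against 3082 to 3271 on controls. Gnai2 fell to 197 to 277 on food-deprived arrays, against 630 to 923 on controls (-1.71, SE 0.336, 0.305-fold, adjusted p = 0.00804). Both genes also followed the array set, since Gnai2 was at 226 and 191 on water-deprived arrays 1 and 2 against 626 to 903 on arrays 3 to 5. Cpe was at 4272 and 4967 on water-deprived arrays 1 and 2, against 2924 to 3503 on arrays 3 to 5. Neither passed with the array set in the fit, and food deprivation and array set cannot be told apart in this comparison without the water-deprived arrays.

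For water deprivation minus food deprivation 0 of 34 passed by limma, and 7 had an unadjusted p under 0.05, as had 3427 (15.8%) of all probe sets tested. The smallest p-values were those of Gnai1, another inhibitory G protein subunit (-1.08, SE 0.307, adjusted p = 0.117), Irag1, a substrate of cGMP-dependent protein kinase (-0.40, adjusted p = 0.181), and Gnai2 (0.92, adjusted p = 0.201). The median over the 34 was 0.0442, against -0.0415 over all probe sets tested. With the array set none passed in any comparison, and the smallest p for water deprivation minus control was that of Pcsk2 (0.73, SE 0.18, adjusted p = 0.415). Pcsk2 was at 46.1 to 70.4 on water-deprived arrays 3 to 5 and 18.3 to 41.1 on controls, so these arrays did not overlap, as in 1.12% of probe sets.

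By role, none of the 5 guanylyl cyclase and nitric oxide synthase genes tested passed in any comparison, and these included Gucy1a1 and Gucy1b1, the subunits of the cyclase that nitric oxide activates. Of 7 genes of peptide processing and clearance Cpe alone passed. Neprilysin (Mme), which degrades the peptides, was at 0.17 for water deprivation minus control (limma adjusted p = 0.881). None of 7 cGMP effectors and none of 7 genes of cGMP removal passed. Pde2a, a phosphodiesterase that cGMP itself activates, was at 0.14 for water deprivation minus control and at 0.35 with the array set (limma adjusted p = 0.713). None of 5 transcription factors of Nppa and Nppb passed, among them Gata4, at 0.29 for food deprivation minus control (adjusted p = 0.182).

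**Figure D5:**
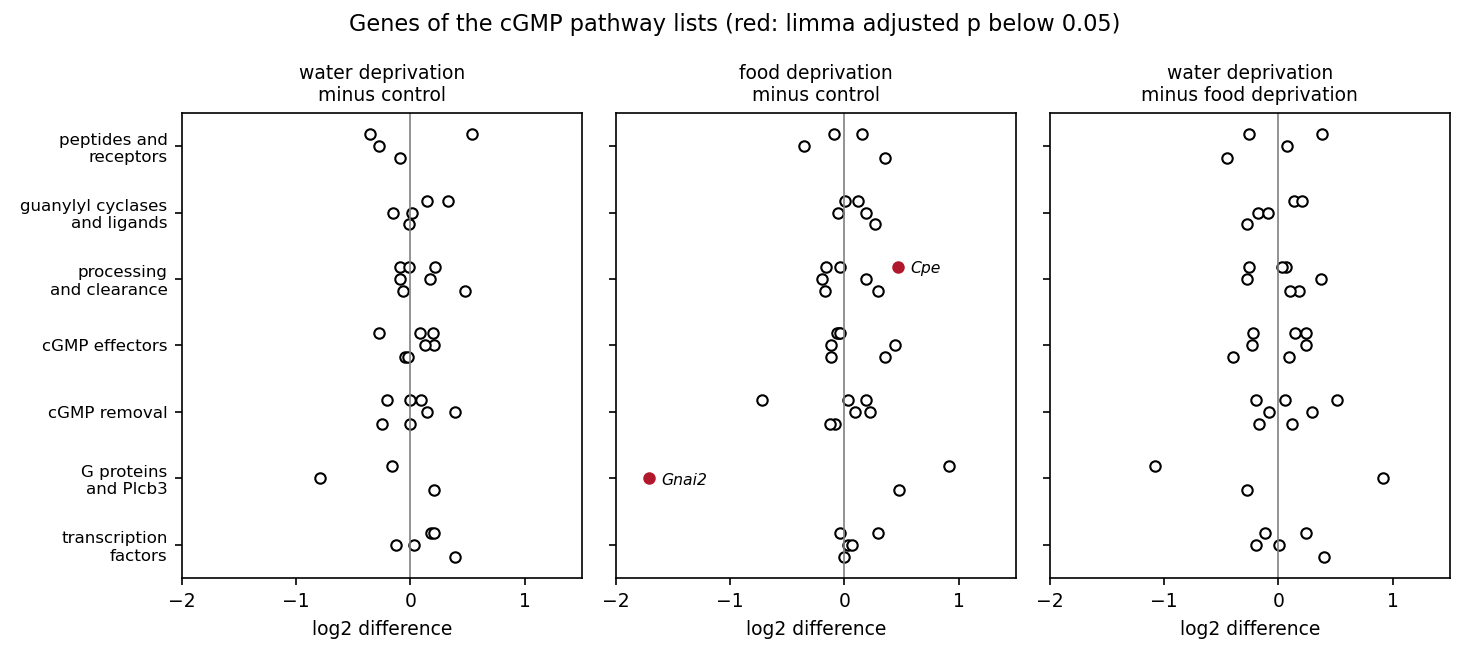
Log2 differences of the 4 tested peptide and receptor genes and of 34 genes in 6 lists, for 3 comparisons. They come from the fit of groups only. The lists are guanylyl cyclases and ligands, peptide processing and clearance, cGMP effectors, cGMP removal, G proteins with Plcb3, and transcription factors. Each point is a gene, and red marks a limma adjusted p below 0.05, reached by Cpe (0.47) and Gnai2 (-1.71) for food deprivation minus control.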

How the data were processed

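RNA from pooled rat subfornical organs was measured on 15 single-colour arrays, 5 per group. Each deposited value is a linear signal intensity of a probe set. Per the submitters' processing notes, GCOS 1.2 was used, in a role not stated there. Every array of the deposited table has a trimmed mean of 100 (2% cut at each end), so intensities were used without further normalization. Arrays give no counts, and their number limits the precision. Genes were named from the platform annotation and RefSeq's gene table, and sequences came from RefSeq (GRCr8).

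Values were taken as log2(signal + 16). Tests covered probe sets with a mean over 15 arrays above the 30th percentile of the 31042 that are not controls. R 4.3.3 and limma 3.58.1 fitted the 3 groups together (12 residual degrees of freedom, 11 with the array set), with a mean-variance trend, two-sided tests and Benjamini-Hochberg adjustment over 21729 probe sets. A gene other than the 6 is represented by its brightest probe set assigned to it alone. All probe sets of the 6 genes are described, pathway genes are named when they passed, otherwise the 3 with the smallest p, and for likeness the 5 highest correlations. A few genes given as examples were chosen after their values were seen. The fit was also run on simulated data. Probe sets were drawn there independently of each other, and the groups-only fit had no array set effect, unlike the real arrays. The genes, lists and array set split (log2 ratio of -1) were chosen with earlier results of these data known.

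Alternatives were other offsets (1 and 64), quantile normalization, centring on the median, other filters, no variance trend, array weights, fewer arrays, the 5′/3′ ratio and the replicate number as a block. The replicate numbers share no stated litter, day or batch, and only 3 of 15 same-numbered pairs had deviations correlated over 0.1 (range -0.36 to 0.37), so they were not used to pair arrays. Figures used matplotlib 3.10.9 under Python 3.11.15, with pandas 2.3.3 and numpy 2.4.6.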

Additional observations from a re-analysis of the deposited data

Results flagged for a closer look

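Of 18 groups of 5 arrays (6 genes in 3 groups), 3 held an array far from the other 4. Chance alone gives about 1 such group in 20 if values are normally distributed, which was not checked here. The number of flags is therefore not set against chance. Nppa was at 67.8 on control 2, against 24.8 to 29.99 on the other controls, and the gap to the nearest was 0.833 of the range of the log2 values. Nppb was at 9.35 on food-deprived array 2, against 0.729 to 1.33 on the others of its group (0.915 of the range). Nppb was at 8.16 on control 1, against 1.09 to 2.69 on the other controls (0.741 of the range). Both Nppb signals are below the filter on dim probe sets.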

How the results depend on the processing

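Of 182 member results under alternatives that leave out no single array, 162 counted as the same, 15 changed sign, 3 passed the threshold newly and 2 untested values of Nppb moved beyond their spread. For tested genes, the same means an unchanged direction and side of the threshold. For Npr3 and Nppb, which were not tested, it means a move smaller than their SD within groups, and their sign was not counted. With the array set as a term, Npr2 was at 0.038 for water deprivation minus control, 0.44 for food deprivation minus control and -0.40 for water deprivation minus food deprivation, Nppc at 0.22 for food deprivation minus control and Npr1 at -0.23 for water deprivation minus food deprivation. Low or high arrays alone gave Npr2 0.038 and -0.40 and Npr1 -0.23 in the matching comparisons. With the 5′/3′ ratio as a numeric term, Nppc was at 0.039 for food deprivation minus control and Npr2 at -0.077 for water deprivation minus food deprivation. With the replicate block added to the array set, Npr2 was at 0.029, 0.41 and -0.38 in the 3 comparisons in the same order, Nppc at 0.017 for food deprivation minus control and Npr1 at -0.27 for water deprivation minus food deprivation. Array weights gave -0.39 for Npr2 and 0.46 for Nppa in food deprivation minus control and -0.49 for Nppa in water deprivation minus food deprivation, all past the limma threshold. An offset of 1 put Nppb at 0.84 for water deprivation minus control and 1.06 for water deprivation minus food deprivation. The cause of these changes was not tested. The 50th percentile filter removes Nppa and Nppc, which have no value there.

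Probe sets called for water deprivation minus control numbered 3 without the filter, 0 with the 50th percentile filter, 2 with array weights, 0 with only the 10 arrays compared, 0 with the replicate block, 6 with the array set, 3 with the 5′/3′ ratio, 0 with set and block and 0 on low arrays. For food deprivation minus control they numbered 1119 with the 50th percentile filter, 5840 with array weights, 4183 with only 10 arrays, 0 with the array set, 139 with the ratio and 0 with set and block. For water deprivation minus food deprivation they numbered 107 after quantile normalization, 99 after median centring, 21 with an offset of 64, 71 with the 50th percentile filter, 2744 with array weights, 0 with only 10 arrays, 20 with the replicate block, 0 with the array set, 0 with the ratio, 0 with set and block and 82 on high arrays. For the F test they numbered 486 with the 50th percentile filter, 5145 with array weights, 397 with the replicate block, 7 with the array set, 27 with the ratio and 3 with set and block. The replicate block brought no member past the threshold.

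Leaving out 1 array at a time, calls ranged from 0 to 2 for water deprivation minus control, 807 to 2854 for food deprivation minus control, 0 to 771 for water deprivation minus food deprivation and 211 to 1477 for the F test. With the set term these ranges were 0 to 13, 0 to 1, 0 to 4 and 0 to 12. Nppa ranged from -0.16 to 0.10 for water deprivation minus control and from 0.28 to 0.55 for food deprivation minus control. Nppc ranged from -0.21 to 0.10 for food deprivation minus control, and Npr2 from -0.026 to 0.20 for water deprivation minus food deprivation. With the set term, water deprivation minus control ranged from 0.84 to 1.09 for Npr1, from -0.027 to 0.10 for Npr2 and from -0.18 to 0.084 for Nppa. Signal near background limits Nppb and Npr3.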
